A study of Homo sapiens with 6 samples.

Results

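The genes described here act in ferroptosis and in the handling of iron. They are GPX4, SLC7A11, ACSL4, FTH1, FTL, TFRC, SLC40A1, NCOA4, AIFM2 and CHAC1. They were chosen by name from the gene count table, which makes 10 of 62754 genes, and 9 of the 10 were among the 19874 genes with enough counts to be tested. HK-2 cells, an established line of human proximal tubular cells, were all exposed to Cisplatin, a platinum drug that injures kidney tubules. They carried either a negative control siRNA (CP+siNC, 3 libraries) or an siRNA against NAT10, an RNA acetyltransferase (CP+siNAT10, 3 libraries), and RNA was sequenced from whole cultures. Deposited counts summed to 19321665, 21602988 and 19464027 in the CP+siNC libraries, and to 20793709, 21531774 and 25192736 in the CP+siNAT10 libraries. No group went without Cisplatin, a single cell line was used, and the sample labels give neither dose nor time. The paper's cell culture methods name a dose and time selected for later experiments, without restating them for the sequenced cells. Beyond the replicate numbers in the labels nothing says that the libraries came from separate cultures, so the p-values measure the spread between these libraries, which may be technical.

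Ferroptosis is a form of cell death driven by iron-dependent peroxidation of membrane lipids. Cystine import and glutathione feed GPX4, which reduces lipid peroxides, while ACSL4 supplies the polyunsaturated lipids that are oxidized. Ferritin holds iron in a stored form, and tubular cells of the kidney are known to be sensitive to this kind of injury.

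NAT10 itself read 75.8, 71.4 and 73.2 CPM (reads of a gene relative to the library total, as CPM scaled by the TMM method) in CP+siNC and 41.3, 40.5 and 42.4 CPM in CP+siNAT10. The targeted gene was thus lower in every library that carried its siRNA, with a log2 fold change of -0.82 (SE 0.0426, edgeR quasi-likelihood test with Benjamini-Hochberg adjusted p = 2.79e-15). The NAT10 siRNA was in all of the CP+siNAT10 libraries, so effects of lower NAT10 and of the siRNA sequence itself cannot be told apart.

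The label of the cells was checked against marker genes. Of 11 proximal tubule markers, 5 had enough counts to be tested and 6 were under 0.5 CPM. LRP2, the megalin receptor, had 1 count over the CP+siNC libraries and 2 over the CP+siNAT10 libraries, and SLC22A6 had 0 counts in all 6 libraries. The most abundant marker was PAX8, at a mean of 39.3 CPM. The 11 markers summed to 75.9, 79.0 and 75.7 CPM in CP+siNC and to 86.1, 90.9 and 91.0 CPM in CP+siNAT10, with 2 higher, 1 lower and 2 not past the test. Of 6 epithelial markers, 5 were tested, with 1 higher, 2 lower and 2 not past the test, and they summed to means of 2093 CPM in CP+siNC and 2005 CPM in CP+siNAT10. KRT8 was the most abundant, at means of 1455 and 1450.0 CPM. KRT18 fell from 346 to 269 CPM (log2 fold change -0.36, edgeR adjusted p = 3.79e-10) and KRT7 fell to 90.2 CPM (-0.15, adjusted p = 0.00147), while EPCAM rose from 15.5 to 19.3 CPM (0.31, adjusted p = 0.000902). CDH1, which codes for E-cadherin, had 3 counts in each group. Endothelial markers summed to means of 0.258 and 0.290 CPM, erythroid markers to 0.491 and 0.599 CPM, and distal nephron markers to 1.51 and 1.52 CPM, in CP+siNC and CP+siNAT10. Fibroblast markers summed to 22.1, 23.5 and 21.8 CPM in CP+siNC and to 23.5, 30.2 and 24.3 CPM in CP+siNAT10, and 1 of 3 tested, COL1A1, was higher. Leukocyte markers summed to 209.9, 199 and 217 CPM in CP+siNC and to 289, 266 and 269 CPM in CP+siNAT10. Nearly all of that was CD68, a lysosomal protein, at means of 207 and 272 CPM. The defining leukocyte gene PTPRC was near the limit of counting, with 25 and 56 counts per group, and rose from 0.418 to 0.824 CPM (log2 fold change 0.96, SE 0.379, edgeR adjusted p = 0.0411). PTPRC counts were 8, 10 and 7 in CP+siNC and 10, 29 and 17 in CP+siNAT10. Of the 6 leukocyte markers 3 were tested, and PTPRC and CD68 were higher. CD14 was not past the test (log2 fold change -0.03, edgeR adjusted p = 0.945). The part of these marker levels in the results was not tested.

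Of the 9 members tested, 6 passed an adjusted p of 0.05, where 44.1% of all genes tested did. FTH1 and SLC7A11 were higher, as were 21.8% of all genes, and FTL, NCOA4, GPX4 and AIFM2 were lower, as were 22.3% of all genes. None passed an adjusted p of 0.05 together with a log2 fold change over 1 in size, which 2.33% of all genes did. Their median log2 fold change was -0.12, beside 0.01 for all genes tested, and the median size over all genes was 0.209. In RNA from whole cultures, fewer cells of a kind and less RNA per cell cannot be told apart for any of these genes.

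**Figure D1:**
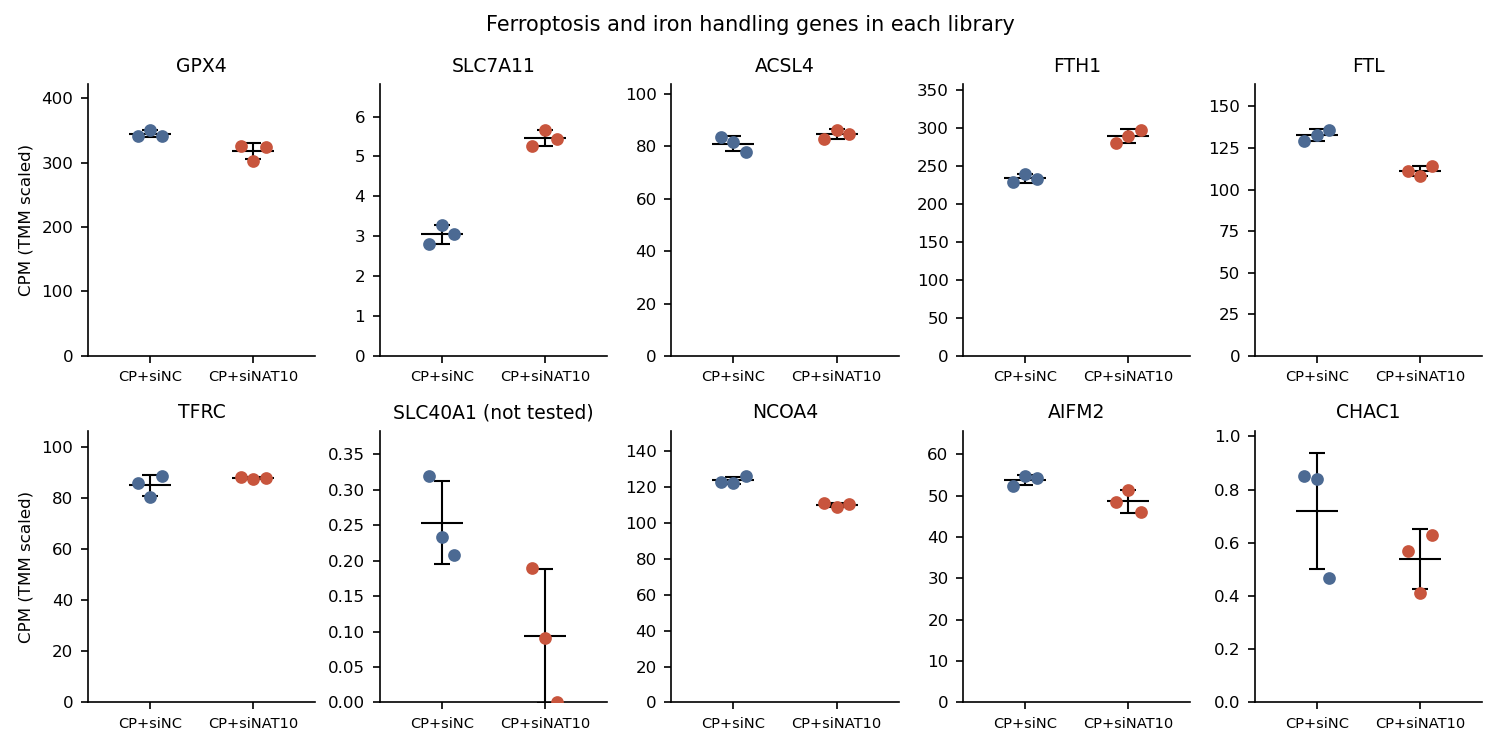
Level of each member (CPM, TMM scaled, axes from 0) in the 3 CP+siNC libraries (blue) and the 3 CP+siNAT10 libraries (red), with the mean and SD as bars. SLC7A11 and FTH1 sit higher in all CP+siNAT10 libraries, GPX4, FTL, NCOA4 and AIFM2 sit lower, and ACSL4, TFRC and CHAC1 overlap.

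SLC7A11, the cystine-importing chain of the cystine/glutamate antiporter, showed the largest fold change among the members past the test. It read 2.81, 3.27 and 3.06 CPM in CP+siNC and 5.27, 5.67 and 5.44 CPM in CP+siNAT10. All 3 CP+siNAT10 libraries lay above all 3 CP+siNC libraries, with no overlap. The mean went from 3.05 ± 0.228 to 5.46 ± 0.201 CPM (SD, 3 libraries each). This was a 1.79-fold rise, with a log2 fold change of 0.84 (SE 0.126, 95% interval 0.578 to 1.095, edgeR quasi-likelihood test with Benjamini-Hochberg adjusted p = 3.04e-06). Only 4.24% of all genes tested had a larger size of change. The gene is nonetheless weakly expressed here, with raw counts of 53, 70 and 59 in CP+siNC and 111, 124 and 138 in CP+siNAT10. An antisense gene, SLC7A11-AS1, overlaps it on the opposite strand and went from 28 to 81 counts per group (log2 fold change 1.32, SE 0.303, edgeR adjusted p = 0.000681). The library kit keeps strand, but whether the counting used it is not given in the sources used here, so reads of the pair cannot be told apart. With the counts of both genes added together the log2 fold change was 0.91 (edgeR adjusted p = 1.65e-07), an alternative chosen after seeing the data.

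SLC3A2 codes for the heavy chain that carries SLC7A11 to the membrane, and it moved the other way. It fell from 97.5 ± 3.41 to 86.3 ± 2.58 CPM (log2 fold change -0.18, SE 0.0385, edgeR adjusted p = 0.000418). The ratio of SLC7A11 to SLC3A2 raw counts, which does not depend on scaling, was 0.0290, 0.0347 and 0.0303 in CP+siNC and 0.0591, 0.0666 and 0.0645 in CP+siNAT10. Every CP+siNAT10 ratio exceeded every CP+siNC ratio. The difference in mean log2 ratio was 1.02 (SE 0.093), which is 2.03-fold. A two-sided exact permutation test gave p = 0.1, the smallest that 3 libraries against 3 allow, and p = 0.1 after adjustment over the 4 ratios compared.

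CHAC1, an enzyme that degrades glutathione and is induced by the stress factor ATF4, was close to the limit of counting. It had 16, 18 and 9 counts in CP+siNC and 12, 9 and 16 counts in CP+siNAT10. The groups overlapped. At this depth no difference was detectable, with a log2 fold change of -0.41 whose 95% interval ran from -1.094 to 0.271 (SE 0.333, edgeR adjusted p = 0.340).

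The wider list for cystine and glutathione supply held 17 tested genes of 18. Of these 4 were higher, 5 lower and 8 not past the test (52.9% past it, beside 44.1% of all genes), with a median log2 fold change of -0.04. Over the alternatives this median ran from -0.096 (without CP+siNAT10 replicate 1) to -0.008 (library size only). CBS, which opens the transsulfuration route to cysteine, rose from 5.64 to 9.20 CPM (log2 fold change 0.71, edgeR adjusted p = 5.52e-07), whereas CTH, which completes it, fell from 5.26 to 3.52 CPM (-0.58, adjusted p = 0.000361). The glutamine carrier SLC1A5 rose from 119 to 142 CPM (0.26, adjusted p = 6.97e-07). GGT1, which splits extracellular glutathione, fell from 33.2 to 27.4 CPM (-0.28, adjusted p = 9.92e-05). The subunits of glutamate-cysteine ligase, which makes the glutathione precursor, differed in outcome. The modifier subunit GCLM fell from 28.7 to 23.9 CPM (-0.26, adjusted p = 0.000524), and the catalytic subunit GCLC read 36.6 ± 1.02 and 37.3 ± 1.48 CPM (0.03, adjusted p = 0.683).

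GPX4, the selenoenzyme that reduces lipid peroxides in membranes, stood highest of the members per length and was slightly lower. It read 342, 351 and 342 CPM in CP+siNC and 326, 303 and 324 CPM in CP+siNAT10. The groups did not overlap, and CP+siNAT10 replicate 2 was the lowest library. Mean levels were 345 ± 5.11 and 318 ± 12.5 CPM, so GPX4 fell to 92% of its CP+siNC level (log2 fold change -0.12, SE 0.034, edgeR quasi-likelihood test with Benjamini-Hochberg adjusted p = 0.00462). This call rested on that library. Without CP+siNAT10 replicate 2 the log2 fold change was -0.09 and the adjusted p was 0.0662, where the adjusted p over all alternatives ran from 0.00315 to 0.0662. Of all genes tested, 68.7% had a larger size of change.

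AIFM2, also called FSP1, regenerates the lipid-soluble antioxidant ubiquinol and acts apart from GPX4. Its levels were 52.4, 54.7 and 54.2 CPM in CP+siNC and 48.4, 51.4 and 46.0 CPM in CP+siNAT10. The groups did not overlap, but the nearest libraries, at 52.4 and 51.4 CPM, were close. AIFM2 fell from 53.8 ± 1.21 to 48.6 ± 2.70 CPM (log2 fold change -0.15, SE 0.0459, edgeR adjusted p = 0.00976). The call was lost without CP+siNAT10 replicate 3 (-0.11, adjusted p = 0.0930) and when libraries were scaled by size only (-0.11, adjusted p = 0.0633). MACROH2A2 lies on the opposite strand and overlaps the span of AIFM2 by 14060 bases, and it rose from 762 to 1813 counts per group (log2 fold change 1.05, SE 0.0723, edgeR adjusted p = 1.40e-12). Adding all of its counts to AIFM2 turned the direction to 0.17 (adjusted p = 0.000932), an alternative chosen after seeing the data. Over all alternatives for AIFM2 the adjusted p ran from 0.000932 to 0.0930. How many reads the pair shares was not tested.

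The list for defence against lipid peroxides includes GPX4 and AIFM2. Among its 26 tested genes of 27, 2 were higher, 10 lower and 14 not past the test. The share past the test was 46.2%, close to the 44.1% of all genes. Of all genes, 21.8% were higher and 22.3% lower. The median log2 fold change of the list was -0.05. Over the alternatives this median ran from -0.067 (stricter filter) to -0.011 (library size only). TXNRD1, the cytosolic thioredoxin reductase, fell from 676 ± 12.9 to 413 ± 6.76 CPM (-0.71, SE 0.0324, edgeR adjusted p = 2.25e-16). PRDX6, a peroxiredoxin that reduces phospholipid peroxides, fell from 111 ± 1.01 to 63.4 ± 2.13 CPM (-0.80, SE 0.0379, adjusted p = 4.23e-16). NQO1, a quinone reductase, fell from 111 to 75.7 CPM (-0.55, adjusted p = 1.07e-12). CHMP6, a part of the membrane repair machinery, rose from 8.12 to 10.2 CPM (0.33, adjusted p = 0.00204), and VKORC1L1, which reduces vitamin K, rose from 22.2 to 25.7 CPM (0.21, adjusted p = 0.00344).

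**Figure D2:**
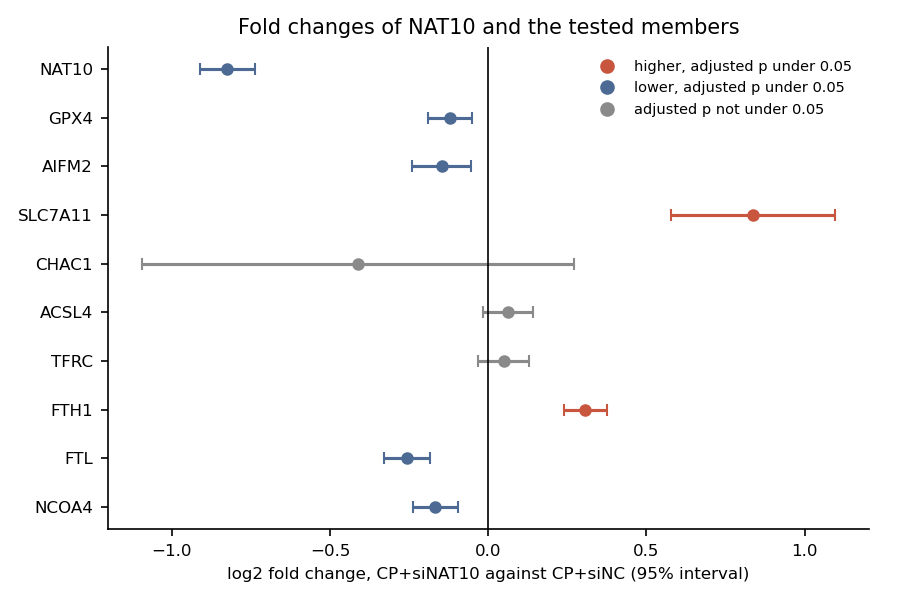
Log2 fold change of NAT10 and the 9 tested members, CP+siNAT10 against CP+siNC, with 95% intervals from the fit. SLC7A11 at 0.84 stands furthest above 0 and NAT10 at -0.82 furthest below among those past the test, and the interval of CHAC1 spans from -1.094 to 0.271.

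ACSL4, which activates arachidonic and adrenic acid for entry into phospholipids, was measured at 83.7, 81.8 and 77.8 CPM in CP+siNC and 82.8, 86.4 and 84.9 CPM in CP+siNAT10. The groups overlapped, with the lowest values in CP+siNC. The log2 fold change was 0.06 (SE 0.0389, 95% interval -0.017 to 0.142, edgeR adjusted p = 0.201). It passed only when libraries were scaled by size alone (0.10, adjusted p = 0.0352), and over its alternatives the adjusted p ran from 0.0352 to 0.633. The ACSL4 to GPX4 count ratio was 0.244, 0.233 and 0.227 in CP+siNC and 0.254, 0.285 and 0.262 in CP+siNAT10. These ratios did not overlap, and their mean log2 difference was 0.18 (SE 0.058, two-sided exact permutation p = 0.1, the smallest possible, and 0.1 adjusted over the 4 ratios).

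Of 24 genes for the supply of peroxidizable lipids, 21 were tested, and 7 were higher, 3 lower and 11 not past the test (47.6%, beside 44.1% of all genes), with a median log2 fold change of -0.01. Over the alternatives this median ran from -0.011 (upper quartile scaling) to 0.063 (looser filter). SCD, which makes the monounsaturated fatty acids that resist peroxidation, rose from 111 ± 2.13 to 156 ± 2.11 CPM (0.48, SE 0.0342, edgeR adjusted p = 2.49e-12). ELOVL5, an elongase of polyunsaturated fatty acids, rose from 64.3 to 79.1 CPM (0.30, adjusted p = 3.28e-07). POR, an oxidoreductase that can drive lipid peroxidation, rose from 46.2 to 57.9 CPM (0.33, adjusted p = 5.84e-07). FADS1, a desaturase on the route to arachidonic acid, fell from 122 to 109 CPM (-0.15, adjusted p = 0.00126). The other lower genes, AGPS (-0.13, adjusted p = 0.0135) and PLA2G6 (-0.27, adjusted p = 0.0419), lay close to the limit. Without CP+siNC replicate 3 their adjusted p was 0.0619 and 0.0616, and 1 gene of the list was then lower, a count also given by library size only, the looser filter and DESeq2. AGPS was also lost without CP+siNAT10 replicate 1 (adjusted p = 0.0539). PLA2G6 was lost without any library but CP+siNAT10 replicate 1, with an adjusted p of up to 0.238 (without CP+siNAT10 replicate 3). LPCAT3, which places polyunsaturated chains in phospholipids, read 28.9 ± 1.39 and 28.7 ± 2.86 CPM (adjusted p = 0.946).

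Iron enters most cells through TFRC, the transferrin receptor. TFRC read 86.1, 80.4 and 88.6 CPM in CP+siNC and 88.3, 87.7 and 87.8 CPM in CP+siNAT10. The CP+siNAT10 libraries all lay within the range of CP+siNC. The log2 fold change was 0.05 (SE 0.0394, edgeR adjusted p = 0.335), and its 95% interval of -0.032 to 0.130 bounds any difference to under the median size of change of all genes tested, 0.209.

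SLC40A1, or ferroportin, the known exporter of iron from cells, had too few counts to be tested. It had 6, 5 and 4 counts in CP+siNC and 4, 2 and 0 counts in CP+siNAT10. The groups touched at 4 counts, although on the CPM scale, at 0.208 and 0.190, they did not overlap. Summed over each group this was 15 counts or 0.252 CPM (exact Poisson 95% interval 0.141 to 0.416) and 6 counts or 0.0879 CPM (0.0323 to 0.191). These intervals overlap and cover counting error only. With the filter on low counts loosened the log2 fold change was -1.45 (SE 0.697, edgeR adjusted p = 0.156). In the library with 0 counts, a floor of 3 counts corresponds to 0.118 CPM.

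Of 22 genes for iron uptake and release, 15 were tested, with 3 higher, 4 lower and 8 not past the test (46.7%, beside 44.1% of all genes) and a median log2 fold change of 0.02. Over the alternatives this median ran from 0.003 (without CP+siNC replicate 2) to 0.101 (looser filter). LCN2, a carrier of siderophore-bound iron that is also used as a marker of tubular injury, was the only gene of all lists past both limits. It rose from 7.40 ± 0.695 to 15.7 ± 0.863 CPM (2.11-fold, log2 fold change 1.08, SE 0.0853, edgeR adjusted p = 2.39e-11). By qPCR the paper reports the opposite direction for LCN2, in Cisplatin-treated HK-2 cells with NAT10 knocked down by lentivirus. The reason for this difference was not tested. CYBRD1, a ferric reductase, rose from 42.9 to 52.0 CPM (0.28, adjusted p = 8.52e-06). SLC39A8, a carrier of divalent metals, fell from 57.0 to 50.7 CPM (-0.17, adjusted p = 0.00300), and SLC48A1, a heme carrier, fell from 15.7 to 13.3 CPM (-0.25, adjusted p = 0.00577). STEAP3, a ferrireductase of endosomes, gave 0.19 (adjusted p = 0.0462), but the call was lost without any library but CP+siNC replicate 2, with an adjusted p of up to 0.385 (without CP+siNC replicate 3). HFE, a partner of the transferrin receptor, gave -0.29 (adjusted p = 0.0138) and was lost without CP+siNC replicate 1 (adjusted p = 0.0991). With DESeq2 the list had 2 lower genes.

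Ferritin is a shell of heavy chains, coded by FTH1 and able to oxidize iron, and light chains, coded by FTL. The mRNAs of these chains moved in opposite directions. FTH1 read 229, 239.8 and 233 CPM in CP+siNC and 280.0, 290.4 and 298 CPM in CP+siNAT10. All CP+siNAT10 libraries lay above all CP+siNC libraries. FTH1 rose from 234 ± 5.26 to 289 ± 9.09 CPM, or 1.24-fold (log2 fold change 0.31, SE 0.0339, edgeR quasi-likelihood test with Benjamini-Hochberg adjusted p = 1.51e-08). FTL read 129, 133 and 136 CPM in CP+siNC and 111, 108 and 114 CPM in CP+siNAT10. Here the highest CP+siNAT10 library, at 114 CPM, was under the lowest CP+siNC library, at 129 CPM. FTL fell from 133 ± 3.64 to 111 ± 2.69 CPM, or to 83.7% (log2 fold change -0.26, SE 0.0357, edgeR adjusted p = 8.69e-07). Of all genes tested, 34.2% had a larger size of change than FTH1 and 41.9% a larger one than FTL.

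Within each library the FTH1 to FTL count ratio was 1.78, 1.80 and 1.71 in CP+siNC and 2.52, 2.68 and 2.62 in CP+siNAT10. The groups were well apart, with means of 1.76 ± 0.0478 and 2.61 ± 0.0809. That is a 1.48-fold difference, or 0.56 on the log2 scale (SE 0.0345, two-sided exact permutation p = 0.1, the smallest possible, and 0.1 adjusted over the 4 ratios). The TFRC to FTH1 count ratio was 0.375, 0.335 and 0.381 in CP+siNC and 0.316, 0.302 and 0.294 in CP+siNAT10. It was lower in every CP+siNAT10 library, by a mean log2 difference of -0.26 (SE 0.065, two-sided exact permutation p = 0.1, the smallest possible, and 0.1 adjusted over the 4 ratios). This ratio sets iron uptake against the heavy chain alone. TFRC did not pass the test and FTL fell, so the ratio mainly restates the rise of FTH1. A ratio of TFRC to FTL was not computed.

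**Figure D3:**
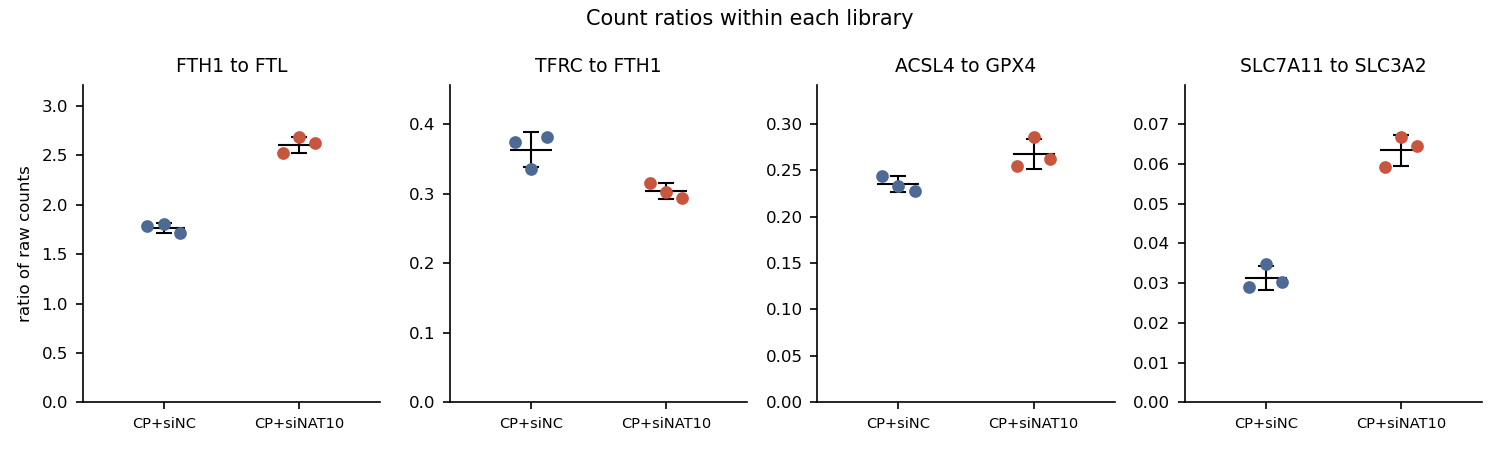
Ratios of raw counts of gene pairs within each library (axes from 0), for 3 CP+siNC libraries (blue) and 3 CP+siNAT10 libraries (red), with mean and SD as bars. The FTH1 to FTL ratio moves from a mean of 1.76 to 2.61, and the SLC7A11 to SLC3A2 ratio from 0.0313 to 0.0634.

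Both ferritin genes have many near-identical pseudogene copies, so their counts are uncertain where reads fit several places. How such reads were treated is not given in the sources used here. The table lists 25 copies of FTH1, with 389 counts in CP+siNC and 683 in CP+siNAT10, together 3.18% of the FTH1 counts. Of 8 copies tested, 2 were higher and 0 lower, where 21.8% of all genes tested were higher and 22.3% lower. The higher copies, FTH1P20 and FTH1P10, had only 34 and 22 counts over the CP+siNC libraries. FTL has 16 copies with 103 and 106 counts, or 1.35% of the FTL counts. With the copies added to the parent genes, an alternative chosen after seeing the data, the log2 fold changes were 0.316 for FTH1 and -0.255 for FTL. The gene BEST1 overlaps FTH1 on the opposite strand and rose from 167 ± 0.646 to 198 ± 2.00 CPM (log2 fold change 0.25, SE 0.0324, edgeR adjusted p = 2.08e-07). Its counts per FTH1 count were 0.728, 0.695 and 0.713 in CP+siNC and 0.701, 0.683 and 0.672 in CP+siNAT10. Reads of this pair cannot be told apart without strand. With the BEST1 counts added, also an alternative chosen after seeing the data, the log2 fold change of FTH1 was 0.285 (edgeR adjusted p = 2.59e-08).

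NCOA4 binds ferritin and delivers it to lysosomes, where its iron is released. It read 123, 122 and 126 CPM in CP+siNC and 111, 109 and 110.5 CPM in CP+siNAT10. No library of one group reached the range of the other. NCOA4 fell from 124 ± 2.00 to 110.0 ± 1.14 CPM (log2 fold change -0.17, SE 0.0346, edgeR adjusted p = 0.000220). The unnamed gene that overlaps it on the opposite strand had 241 and 199 counts. With these added, an alternative chosen after seeing the data, the log2 fold change was -0.18. The 4 pseudogene copies of NCOA4 held 0.444% as many counts.

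In the list for iron storage and ferritin turnover, 12 of 14 genes were tested, with 4 higher, 4 lower and 4 not past the test (66.7%, beside 44.1% of all genes) and a median log2 fold change of 0.01. Over the alternatives this median ran from -0.028 (without CP+siNAT10 replicate 2) to 0.051 (library size only). HERC2, a ubiquitin ligase that acts on NCOA4, rose from 55.7 to 68.7 CPM (0.30, edgeR adjusted p = 3.82e-06). The iron chaperones that load ferritin were split. PCBP1 fell from 88.6 ± 3.07 to 70.1 ± 2.71 CPM (-0.34, adjusted p = 6.70e-08), and PCBP2 rose from 339 ± 2.92 to 373 ± 2.68 CPM (0.14, adjusted p = 0.000521). HMOX2, the constitutive heme oxygenase, fell from 53.8 to 42.6 CPM (-0.34, adjusted p = 4.63e-07). The inducible HMOX1 read 11.1 ± 0.178 and 10.8 ± 0.759 CPM (-0.04, adjusted p = 0.764).

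Iron regulatory proteins bind a hairpin in several of these mRNAs, which is why the hairpins are shown here. Bound in the 5′ UTR it is known to block translation, and bound in the 3′ UTR it is known to protect the mRNA, so that mRNA counts of ferritin do not report the protein, which was not measured. The letters CNNNNNCAGTGN were searched along the mRNA strand only, in the principal GENCODE 29 transcript of 19684 genes, and the 5 bases before the loop were paired with the 5 bases after it, G to U pairs included. FTH1, FTL and SLC40A1 held a fully paired match in the 5′ UTR, and TFRC held 4 in the 3′ UTR. Of all genes, 8.32% held the letters in the 5′ UTR and 0.107% with a fully paired stem, and 30.2% and 0.528% did so in the 3′ UTR. Sequences are written 5′ to 3′ with the strand of the gene (GRCh38), and capitals mark the loop.
FTL: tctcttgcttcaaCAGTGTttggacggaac
SLC40A1: ccaacttcagctaCAGTGTtagctaagttt
TFRC: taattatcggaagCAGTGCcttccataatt
TFRC: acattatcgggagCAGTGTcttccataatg
The matches lie at chr19:48965334-48965363 (plus strand) for FTL and chr2:189580661-189580690 (minus strand) for SLC40A1. That of FTH1, whose sequence is not printed, lies at chr11:61967574-61967603 (minus strand). The pair shown for TFRC lies at chr3:196050979-196051008 and chr3:196050575-196050604 (minus strand).

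ACO1 and IREB2 code for the proteins that bind these hairpins. ACO1 fell from 50.8 ± 0.614 to 36.2 ± 1.02 CPM (log2 fold change -0.49, SE 0.045, edgeR adjusted p = 5.48e-10). IREB2 read 39.0 ± 0.408 and 36.3 ± 0.639 CPM (-0.10, adjusted p = 0.0728). FBXL5, the iron-sensing subunit that targets IREB2 for degradation, read 23.7 ± 1.31 and 24.4 ± 0.847 CPM (0.05, adjusted p = 0.542). All 11 genes of the iron sensing list were tested, with 6 higher, 2 lower and 3 not past the test (72.7%, beside 44.1% of all genes) and a median log2 fold change of 0.10. The cytosolic iron-sulfur assembly genes MMS19 and CIAO1 rose, MMS19 from 25.2 to 36.0 CPM (0.52, adjusted p = 1.01e-08) and CIAO1 from 54.7 to 63.9 CPM (0.22, adjusted p = 7.07e-05). CUL1, a scaffold of the ligase that holds FBXL5, rose from 57.6 to 70.1 CPM (0.28, adjusted p = 1.36e-06). CIAO2B fell from 39.6 to 34.1 CPM (-0.22, adjusted p = 0.00198).

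Mitochondria use iron for iron-sulfur clusters and heme, and more of these genes fell than rose. All 26 were tested, with 5 higher, 12 lower and 9 not past the test (65.4%, beside 44.1% of all genes) and a median log2 fold change of -0.15. ISCU, the scaffold on which clusters are built, fell from 172 ± 8.84 to 111 ± 1.65 CPM (-0.63, SE 0.0373, edgeR adjusted p = 5.74e-14). FDXR, which feeds electrons to cluster assembly, fell from 36.9 ± 0.994 to 21.4 ± 1.07 CPM (-0.79, SE 0.0534, adjusted p = 9.01e-13). NFS1, the enzyme that supplies the sulfur, rose from 16.5 to 19.5 CPM (0.24, adjusted p = 0.00242), and ISCA1 rose from 27.5 to 32.6 CPM (0.25, adjusted p = 0.000237). Consecutive enzymes of heme synthesis differed in direction, as UROS rose from 33.2 to 40.7 CPM (0.30, adjusted p = 1.05e-05) and UROD fell from 111 to 89.9 CPM (-0.31, adjusted p = 1.70e-07).

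Of 19 genes for the stress response that accompanies ferroptosis, 18 were tested, with 3 higher, 6 lower and 9 not past the test (50%, beside 44.1% of all genes) and a median log2 fold change of -0.04. Over the alternatives this median ran from -0.096 (without CP+siNAT10 replicate 1) to -0.003 (library size only). ATF4, a transcription factor known to act on SLC7A11 and CHAC1, fell from 253 ± 7.71 to 198 ± 1.30 CPM (-0.36, SE 0.0333, edgeR adjusted p = 6.38e-10). Its partner DDIT3, also called CHOP, rose from 35.2 to 43.6 CPM (0.31, adjusted p = 4.17e-06), as did the stress gene DDIT4 from 25.8 to 30.2 CPM (0.23, adjusted p = 0.00175). SRXN1, which restores oxidized peroxiredoxins, fell from 45.4 to 31.5 CPM (-0.53, adjusted p = 6.06e-10). SAT1, a polyamine enzyme linked to ferroptosis, read 698 ± 24.9 and 700.2 ± 41.0 CPM (0.01, adjusted p = 0.931).

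Among 25 upstream regulators, all tested, 6 were higher, 14 lower and 5 not past the test (80.0%, beside 44.1% of all genes), with a median log2 fold change of -0.11. When libraries were scaled by size only, 8 were higher and 9 lower, with a median of -0.072. NFE2L2, the factor NRF2 that drives antioxidant genes, fell from 280.0 ± 11.8 to 253 ± 8.37 CPM (-0.15, SE 0.0357, edgeR adjusted p = 0.00139). CDKN1A, an inhibitor of cyclin-dependent kinases, fell from 69.5 to 52.0 CPM (-0.41, adjusted p = 4.79e-09). The Hippo pathway cofactors fell together, WWTR1 from 223 to 166 CPM (-0.43, adjusted p = 2.53e-11) and YAP1 from 52.2 to 41.1 CPM (-0.35, adjusted p = 8.88e-07). ATM rose from 37.9 to 53.0 CPM (0.48, adjusted p = 3.83e-10), DPP4 from 2.71 to 4.45 CPM (0.72, adjusted p = 6.93e-05) and HSF1 from 34.6 to 41.8 CPM (0.27, adjusted p = 0.000278).

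**Figure D4:**
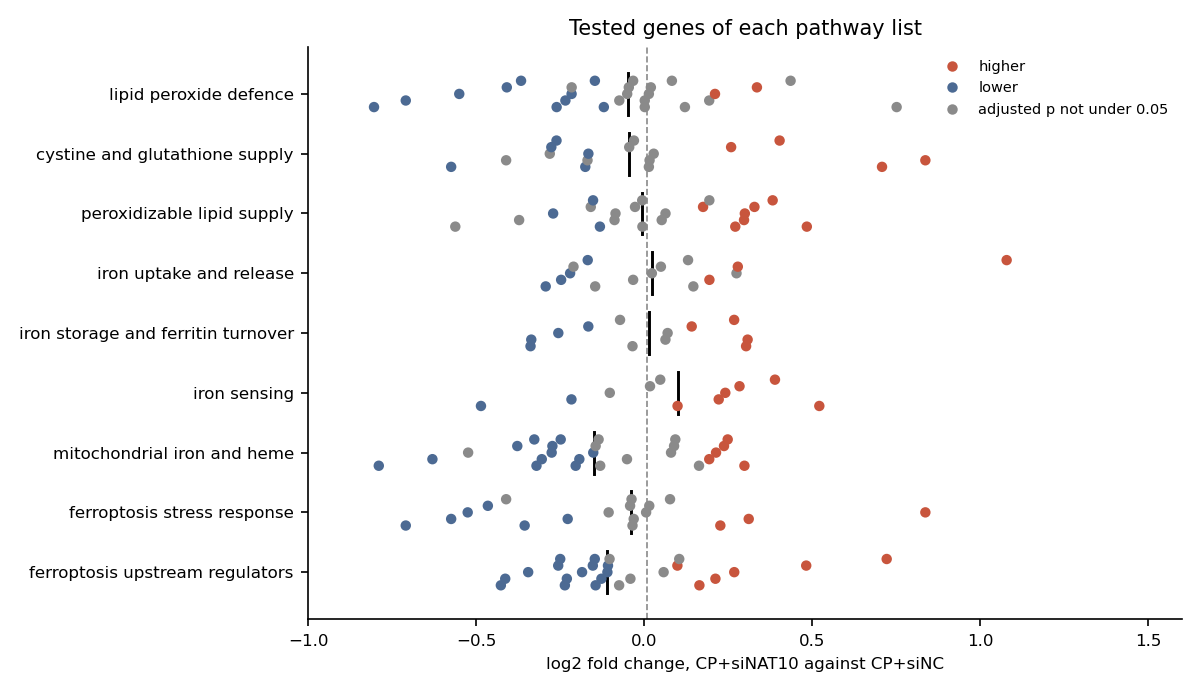
Log2 fold change of every tested gene in the 9 pathway lists (points, coloured by the call at an adjusted p of 0.05), with each list's median as a black line and the median of all genes tested as a dashed line. Lower genes outnumber higher ones in lipid peroxide defence (10 against 2), the upstream regulators (14 against 6) and the mitochondrial list (12 against 5). For the upstream regulators this was 9 against 8 when libraries were scaled by size only. Higher genes outnumber lower ones in peroxidizable lipid supply (7 against 3) and iron sensing (6 against 2). Of all genes tested, 21.8% were higher and 22.3% lower. LCN2, at 1.08, is the only point past 1.

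All lists together held 181 different genes, of which 166 were tested, 39 were higher and 58 lower. The share past the test, 58.4%, stood beside 44.1% of all genes, and the median log2 fold change was -0.04.

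Promoters were searched for letters tied to NRF2 and to ATF4 with CHOP, since members and regulators that are known to be linked moved differently. RefSeq promoters (GRCh38.p14, 250 bases before to 50 after the start) were at hand for 8 of the 10 members, and SLC7A11 and FTH1 had no entry. On both strands TGACNNNGC, the core of the antioxidant response element, was present in 13.3% of 35116 promoters, and TGATGNAA, the CHOP-ATF4 composite element, in 3.62%. AIFM2 and CHAC1 held a match, as did a second promoter of NCOA4, and SLC3A2 held both sets of letters in 1 of its 3 promoters. Those of AIFM2 and CHAC1 and the antioxidant letters of SLC3A2 are shown in capitals within 30 bases written 5′ to 3′ on the strand of the gene.
AIFM2: ccagcacgagtGCTGAGTCAcgccccgccc
SLC3A2: acgagggtgggTGACTCAGCgtcctccttc
CHAC1: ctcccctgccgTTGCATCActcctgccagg
The windows lie at chr10:70132829-70132858 (minus strand), chr11:62881651-62881680 (plus strand) and chr15:40953251-40953280 (plus strand). A match is a description of letters and shows no binding. AIFM2 and SLC3A2 were both slightly lower, and CHAC1 did not pass the test.

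Levels were compared between genes per kilobase of the length listed in the table. In CP+siNC the order of CPM per kilobase was GPX4 at 188 ± 2.78, FTL at 152 ± 4.18, FTH1 at 117 ± 2.62, NCOA4 at 31.0 ± 0.501, AIFM2 at 10.5 ± 0.236, ACSL4 at 8.13 ± 0.303 and TFRC at 4.89 ± 0.243. Below these came CHAC1 at 0.351 ± 0.106, SLC7A11 at 0.316 ± 0.0236 and SLC40A1 at 0.0601 ± 0.0138, and CHAC1 and SLC7A11 did not differ beyond their spread. In CP+siNAT10 the level of FTH1, at 144 ± 4.54 per kilobase, stood above that of FTL, at 128 ± 3.09, and SLC7A11, at 0.566 ± 0.0209, above CHAC1, at 0.262 ± 0.0552. The order depends on the length used. Per kilobase of the principal GENCODE 29 transcript, a scale chosen after seeing the data, FTH1 at 190.4 was above FTL at 151 in CP+siNC already. On that scale TFRC and AIFM2 were both at 16.6 in CP+siNC, since the table gives TFRC 17.4 kilobases and the transcript has 5.11.

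**Figure D5:**
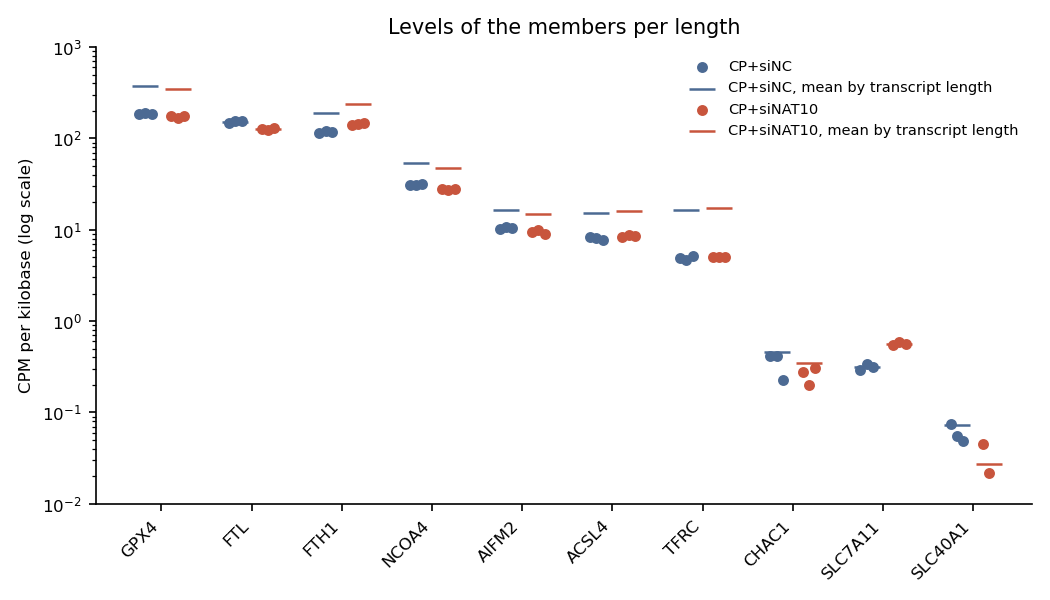
CPM per kilobase of each member on a log scale, for each library by the length in the table (points) and as group means by transcript length (dashes), CP+siNC in blue and CP+siNAT10 in red. GPX4 and the ferritin genes lie above 100, SLC7A11, CHAC1 and SLC40A1 below 1, and the library of SLC40A1 with 0 counts is not drawn.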

How the data were processed

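RNA of 6 libraries was sequenced with a stranded kit that adds molecular identifiers. The authors deposited raw counts per gene for these libraries, made per the submitters' processing notes with Trimmomatic 0.36, STAR 2.5.3a and featureCounts of Subread 1.5.1 on GRCh38. Per the paper the identifiers serve to correct for duplicate reads, but neither it nor the notes name a step that merged them before counting. The notes also name edgeR 3.12.1.

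From these counts, edgeR 4.0.16 in R 4.3.3 (limma 3.58.1) kept genes by filterByExpr (minimum count 10, minimum total 15), scaled libraries by TMM and fitted the quasi-likelihood test on 19874 genes with Benjamini-Hochberg adjustment. A biological coefficient of variation of 3% was estimated. Replicate libraries differed by more than sampling noise, with a mean chi-square per gene of 1.74 to 2.57 within groups and 18.9 to 23.2 between them. Count ratios were compared with exact permutation tests (SciPy 1.17.1), and DESeq2 1.42.0 was an alternative.

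Named genes were all 10 members and NAT10, from each pathway list the 3 higher and 3 lower genes with the smallest p among those past the limit, and SLC3A2, IREB2, ACO1, FBXL5, LPCAT3, HMOX1, SAT1, ATF4, NFE2L2, GCLC and GCLM whatever their values. Some items that fall under this rule are not reported here. BEST1, SLC7A11-AS1 and MACROH2A2 were named for their overlap with members. The members and lists were chosen with earlier results of these data known.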

Additional observations from a re-analysis of the deposited data

How the results depend on the processing

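Over scalings, filters, tools and left-out libraries, NAT10, SLC7A11, FTH1, FTL and NCOA4 kept their direction and their call. SLC7A11 ranged from 0.782 to 0.887, FTH1 from 0.286 to 0.345, FTL from -0.279 to -0.219 and NCOA4 from -0.183 to -0.129. With the counts of overlapping genes added, chosen after seeing the data, SLC7A11 gave 0.913 and FTH1 gave 0.285. TFRC and CHAC1 passed under none of the alternatives run, and CHAC1 has no value under the stricter filter, which leaves it out. GPX4 ran from -0.137 to -0.087 with each library left out and was lost without CP+siNAT10 replicate 2 (adjusted p = 0.0662, range 0.00315 to 0.0662). AIFM2 ran from -0.188 to -0.106 and was lost without CP+siNAT10 replicate 3 (adjusted p = 0.0930). Scaling by library size only gave -0.110 for AIFM2 (adjusted p = 0.0633) and 0.101 for ACSL4 (adjusted p = 0.0352). Adding the counts of MACROH2A2 reversed AIFM2 to 0.172 (adjusted p = 0.000932, range over its alternatives 0.000932 to 0.0930), which follows from the added counts. The causes of the other changes were not tested. Of the 10 members, 5 or 6 passed under every alternative. Genes past both limits numbered 464, but 711 with the looser filter, 299 with the stricter filter and 56 with glmTreat against a fold change of 2. Among the list counts and medians, 336 of 378 alternative values lay within a tolerance of the reported ones and 42 moved further. That tolerance is not given here and does not mean equal values. The count of higher upstream regulators, reported as 6, ran from 4 to 8 within it. The median of peroxidizable lipid supply ran from -0.011 to 0.063, and that of iron storage from -0.028 to 0.051, so neither has a stable sign. Among 57 named genes outside the members, 4 lost their call in some alternative and 0 reversed. The count ratios kept their direction in all alternatives. With the replicate block, 8526 genes passed, GPX4 gave -0.121 (adjusted p = 0.00969) and AIFM2 gave -0.146 (adjusted p = 0.0112), and no member's call changed. Same-numbered libraries had correlations of -0.0317, 0.0267 and -0.167, and pairs with different numbers ran from -0.133 to 0.154. With 3 libraries per group these values cannot decide whether the numbers pair the samples.

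SLC40A1 was below the filter and has no alternatives to compare except the looser filter (-1.45, adjusted p = 0.156). At this depth SLC7A11 had at most 138 counts in a library, and the interval of CHAC1 takes in the fold changes of all other tested members but SLC7A11 and FTH1. Adjusted p-values rest on 3 libraries per group and 1 cell line, and protein, lipid peroxides and iron were not measured.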
